A study of Mus musculus with 12 samples.

Results

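The levels of 32 endothelial transcripts were followed in nuclei captured as microglial from the mouse spinal cord after injury. The 32 genes are named markers of the inner lining of blood vessels, given as a list of names that was drawn up with earlier results of these data known. Each was found once among the 49585 genes of the count table. They fall into 8 roles: VEGF and Tie receptors, junction and adhesion proteins, barrier transporters, other signalling receptors and co-receptors, transcription factors, secreted and matrix proteins, GTPase regulators with other intracellular proteins, and other surface or membrane markers.

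The study sequenced nuclear RNA in 12 libraries, 3 each at 3, 7 and 14 days after spinal cord injury and 3 from sham-operated mice. All mice were C57BL/6, a common laboratory strain, and each library pooled cord tissue from both sides of the injury level of 3 animals. The sham libraries carry the 7-day label, and the same sham libraries stand against all 3 times. Nuclei were separated on an iodixanol density gradient. Those carrying green fluorescent protein were then pulled down with an antibody and magnetic beads. The sources used here do not give the gene that drives the fluorescent protein. The submitters describe the captured material as specific to microglia.

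Endothelial cells form the wall of every capillary, and in the brain and spinal cord they build the blood-brain and blood-spinal cord barrier with tight junctions and dedicated transporters. Growth and stability of vessels run through VEGF acting on its receptors Kdr and Flt1 and through angiopoietins acting on Tek, while ETS and SOX factors such as Erg, Sox17 and Sox18 keep the endothelial programme on. Spinal cord injury breaks vessels open, and vessels are known to regress and regrow around the lesion in the following weeks. A few of these genes are also used by blood and immune cells, among them Pecam1, Eng and Flt1.

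Total counts ranged from 4003480 to 10670804 per library, the highest being 3-day replicate 3. Microglia markers summed to 3246 to 3978 CPM (counts scaled to the library total) at 3 days, 4417 to 5296 CPM at 7 days, 3858 to 4773 CPM at 14 days and 4735 to 5977 CPM in sham libraries, so markers of the labelled cell type were present in every library. A pair of libraries stood apart within their groups: 3-day replicate 3 had the highest level of the group for all 32 endothelial genes, and sham replicate 4 had the highest level of the group for 27 of them. Sham replicate 4 also held 5238 CPM of summed astrocyte markers, against 825 and 1918 CPM in sham replicates 2 and 3. Results are therefore given with and without these libraries where they matter. In a bulk library, fewer endothelial nuclei and less RNA per nucleus cannot be told apart.

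The endothelial genes were high at 3 days, low at 7 days and high again at 14 days after injury. Their summed level was 684, 799.8 and 1730.1 CPM in the 3-day libraries, 118, 125 and 187 CPM in the 7-day libraries, 997, 1029 and 993 CPM in the 14-day libraries, and 129, 184 and 618 CPM in sham replicates 2, 3 and 4. Every 3-day and every 14-day library lay above every sham library, while the 7-day and sham libraries overlapped. The mean sum was 3.46 times the sham mean at 3 days, 0.461 times at 7 days and 3.24 times at 14 days. Without sham replicate 4 these ratios were 6.86, 0.915 and 6.44, and without 3-day replicate 3 the ratio at 3 days was 2.39. The 3 libraries at 14 days lay close together, with an SD of 19.6 CPM, whereas the SD was 573 CPM at 3 days, 37.8 CPM at 7 days and 268 CPM in sham.

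**Figure D1:**
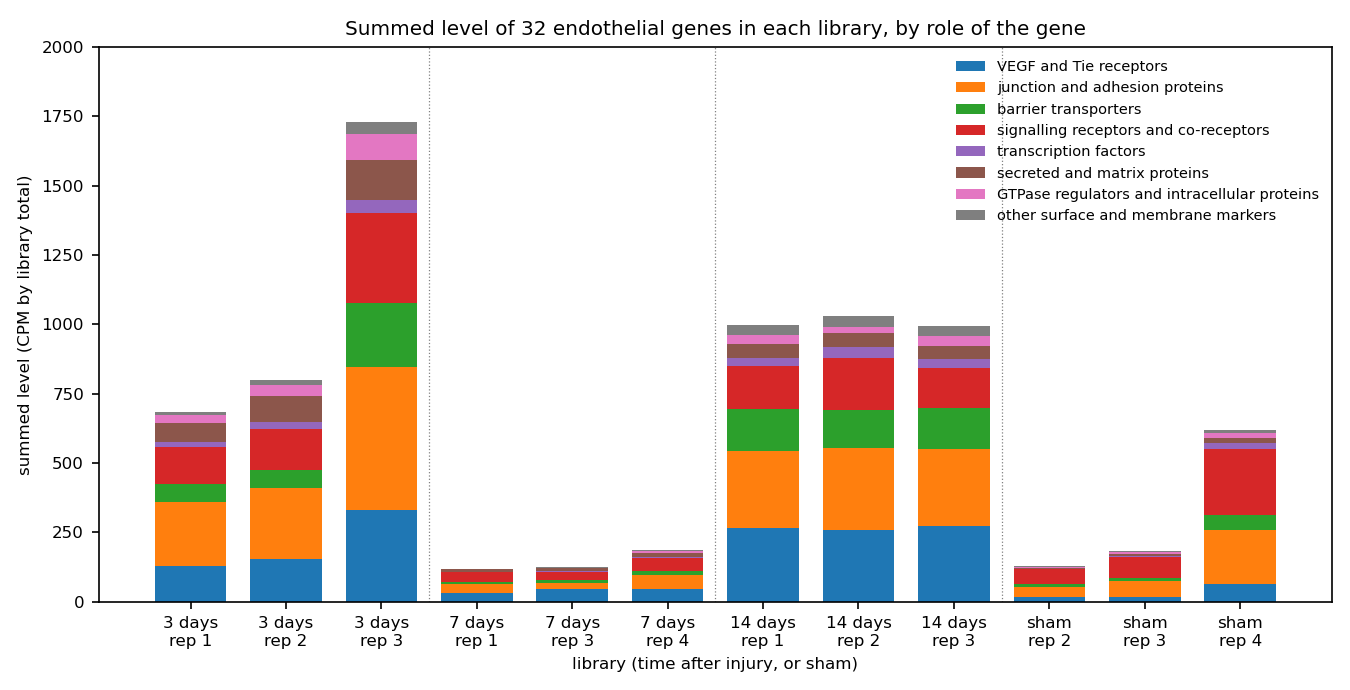
Summed level of the 32 endothelial genes in each of the 12 libraries, as CPM by library total on the y axis, with bar segments for the 8 roles of the genes. The 3-day libraries stand between 684 and 1730.1 CPM and the 14-day libraries between 993 and 1029 CPM, above the 7-day libraries at 118 to 187 CPM and the sham libraries at 129 to 618 CPM.

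Gene by gene, 23 of the 32 were called higher at 3 days than in sham, 9 were not called and 0 were lower. A call means a p under 0.05 from edgeR's quasi-likelihood test after adjustment across all 18451 genes tested by the Benjamini-Hochberg method. Of those genes 10.9% were called higher and 9.17% lower in this comparison. The 3-day libraries lay above the sham libraries with no overlap for 23 of the 32, beside 18.7% of all genes. At 14 days against sham, 12 were called higher and 1 lower, beside 5.02% of all genes higher and 4.79% lower. The libraries lay above sham with no overlap for 24, beside 15.5% of all genes. At 7 days against sham, 0 were called higher and 2 lower, beside 4.61% and 4.67% of all genes. An unadjusted p under 0.05 was found for 8 of the 32, a count given without the share of all genes. Kdr lay above sham with no overlap (12.1% of all genes did) and 3 genes below it (10.7%). DESeq2 called 2 members at 7 days as well. The median log2 fold change over the 32 genes was 2.44 at 3 days, -0.99 at 7 days and 1.89 at 14 days, against medians over all tested genes of -0.03, 0.01 and -0.05. The 3 comparisons share the sham libraries. In the test of any difference between the 4 groups 31 of the 32 passed, all but Sox17, beside 26.4% of all genes. All 32 passed the filter on low counts, but 17, 17 and 10 of them had under 10 counts in sham replicates 2, 3 and 4, and a gene that passes through the group in which it is high is bound to differ. Since each library pools 3 animals, the p-values reflect variation between pools.

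**Figure D2:**
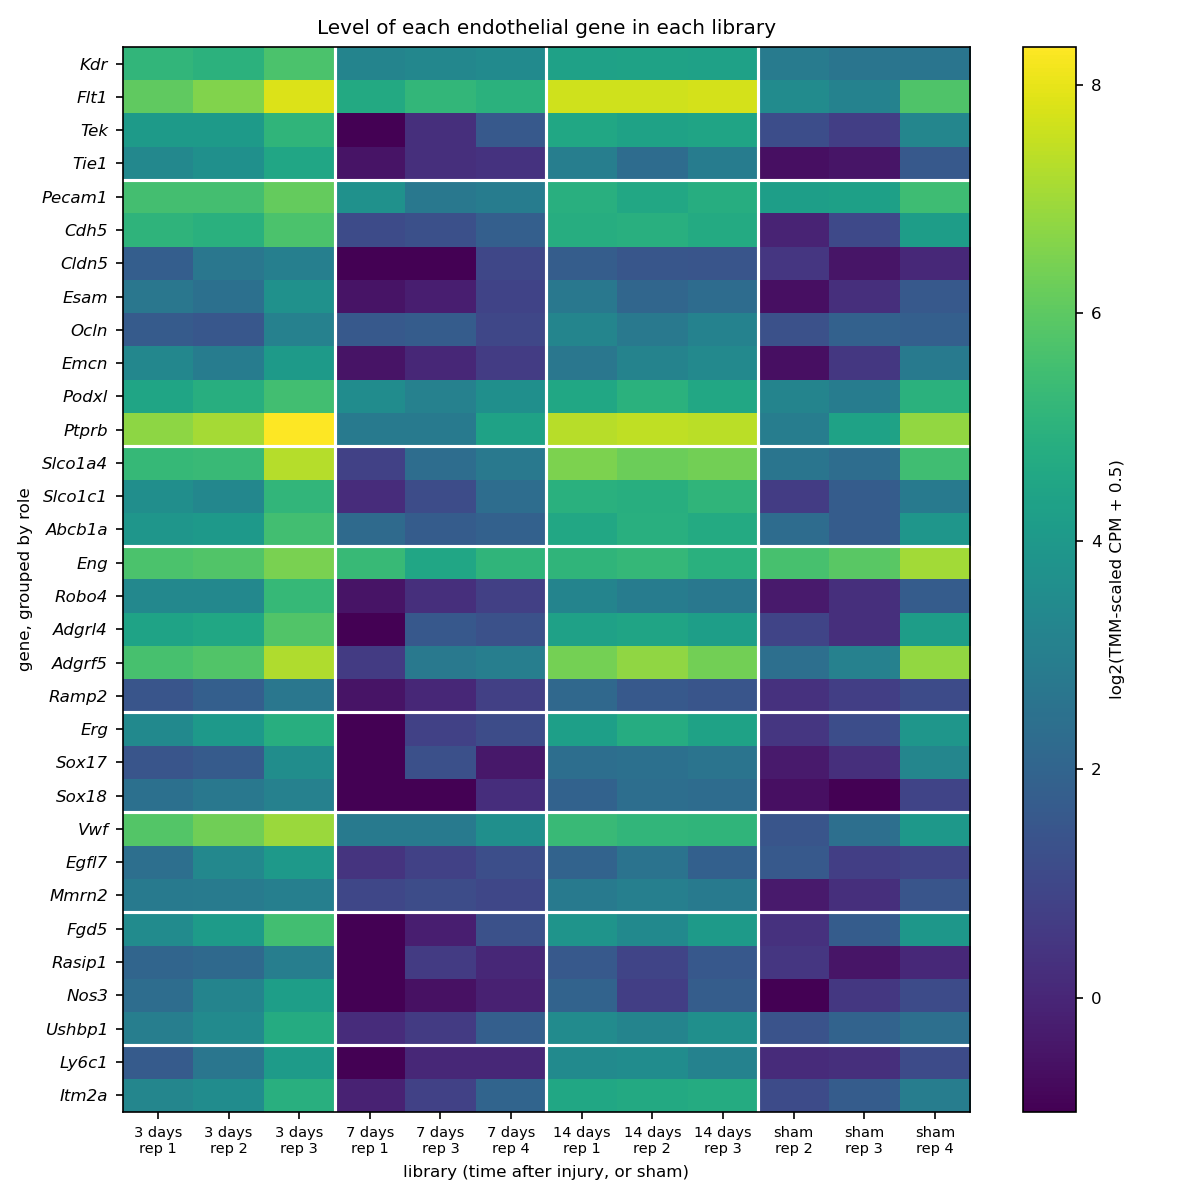
Level of each of the 32 endothelial genes (rows, grouped by role) in each of the 12 libraries (columns), as log2 of TMM-scaled CPM plus 0.5. The columns at 3 and 14 days are bright for most genes and those at 7 days dark, sham replicate 4 is brighter than the other sham columns for 27 genes, and Eng stays bright in all 12.

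The 3-day calls leaned on 1 library more than on any other. Without 3-day replicate 3 the count called higher was 10 of 32, without sham replicate 4 it was 30, and without both, an alternative added after the data were seen, it was 26. The summed level excluding both was 684 and 799.8 CPM at 3 days against 129 and 184 CPM in sham replicates 2 and 3. The calls of 10 genes at 3 days (Kdr, Tie1, Robo4, Sox18, Vwf, Egfl7, Mmrn2, Rasip1, Nos3 and Ly6c1) and of 7 genes at 14 days (Kdr, Flt1, Slco1c1, Vwf, Mmrn2, Ly6c1 and Itm2a) held whichever of the 12 libraries was left out. Rasip1 and Nos3 passed the filter on low counts through the 3-day libraries, where they are high, so their calls are a description. Tie1, Robo4, Sox18, Egfl7, Mmrn2 and Ly6c1 reached at most 1.87 CPM at 7 days and 2.80 CPM in sham libraries. They passed the filter through the 3- and 14-day libraries, where they are high, so their calls are a description too. Other members, among them Cldn5, Esam, Emcn and Ramp2, passed in the same way. The total called at 14 days was 7 to 24 over the leave-outs of 1 library, with 24 higher and 0 lower without sham replicate 4, and 25 higher and 1 lower without both libraries. Leaving out a library also changes how many of all genes are called. Most leave-out counts given here and below stand without that share.

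The stretch of DNA just before the RefSeq start of these genes often held the letters AGGAAG, a core that ETS factors such as Erg can bind. The GENCODE annotation can place a start elsewhere. By it most of the Tie1 window lies inside the gene, and so does the marked AGGAAG of the Robo4 window. RefSeq promoter windows for GRCm38.p6 matched 21 of the 32 genes with 28 windows, and the 250 bases before the start held AGGAAG or its reverse complement in 18 of the 28 windows (64.3%), against 29.5% of 32851 windows of all genes. The related letters CCGGAA stood in 3 of the 28 windows (10.7%, against 12.03% of all), ACAATG, a SOX core, in 2 (7.14%, against 10.7%), and TGTTTA, a FOX core, in 3 (10.7%, against 12.03%), on either strand. A match describes the letters and is neither a site nor a cause. A stretch of 6 letters cannot match both AGGAAG and CCGGAA, and the windows shown hold no CCGGAA. Each window shown holds AGGAAG. Windows without it, such as those of Kdr, Tek and Cldn5, are left out, though Kdr was called at 3 and 14 days in every leave-out. Those shown are for Flt1 and Slco1c1, both called higher at 14 days in every leave-out, and for Tie1 and Robo4, with the highest fold changes at 3 days. The last is for Eng, which was not called at 3 days against sham. It was called lower than in sham at 14 days, a call lost without any 14-day library or without sham replicate 4. The windows are Flt1 at chr5:147726012-147726261, minus strand, Slco1c1 at chr6:141524104-141524353, plus strand, Tie1 at chr4:118489850-118490099, minus strand, Robo4 at chr9:37401722-37401971, plus strand and Eng at chr2:32646345-32646594, plus strand. Each is written 5′ to 3′ on the strand of its gene, with AGGAAG or its reverse complement in capitals.
Flt1: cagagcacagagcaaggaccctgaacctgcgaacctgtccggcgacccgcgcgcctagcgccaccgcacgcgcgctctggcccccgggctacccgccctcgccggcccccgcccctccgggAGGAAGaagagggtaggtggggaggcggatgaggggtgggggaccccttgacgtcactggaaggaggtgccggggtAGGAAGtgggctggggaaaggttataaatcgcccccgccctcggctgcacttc
Slco1c1: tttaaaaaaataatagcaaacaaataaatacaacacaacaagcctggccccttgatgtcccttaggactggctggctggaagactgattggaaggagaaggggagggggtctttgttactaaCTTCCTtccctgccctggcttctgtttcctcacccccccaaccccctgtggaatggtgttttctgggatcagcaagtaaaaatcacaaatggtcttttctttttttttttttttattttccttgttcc
Tie1: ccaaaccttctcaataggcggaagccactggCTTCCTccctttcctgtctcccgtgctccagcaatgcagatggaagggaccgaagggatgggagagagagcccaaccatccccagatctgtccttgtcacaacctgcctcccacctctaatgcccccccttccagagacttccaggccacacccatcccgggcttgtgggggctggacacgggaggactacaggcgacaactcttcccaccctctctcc
Robo4: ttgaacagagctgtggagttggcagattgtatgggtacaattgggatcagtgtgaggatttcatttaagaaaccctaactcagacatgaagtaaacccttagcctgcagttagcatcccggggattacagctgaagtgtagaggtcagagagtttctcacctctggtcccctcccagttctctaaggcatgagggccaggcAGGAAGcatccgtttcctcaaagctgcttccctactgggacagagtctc
Eng: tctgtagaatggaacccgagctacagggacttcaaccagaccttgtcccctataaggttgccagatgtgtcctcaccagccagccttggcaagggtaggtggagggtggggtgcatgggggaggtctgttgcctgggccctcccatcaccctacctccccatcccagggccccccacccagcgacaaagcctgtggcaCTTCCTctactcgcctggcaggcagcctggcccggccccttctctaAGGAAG

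All 4 VEGF and Tie receptors were higher than in sham at both 3 and 14 days. Flt1, a receptor that binds VEGF and limits its action, stood at 66.3, 95.0 and 230.0 CPM at 3 days, 24.7, 35.7 and 30.9 CPM at 7 days, and 201, 200.1 and 212 CPM at 14 days. Sham libraries held 10.9, 8.23 and 54.0 CPM, with the CPM of single genes scaled by TMM. Every 3-day and 14-day library lay above every sham library. The 7-day values overlapped the sham values. Its log2 fold change against sham, given ± SE, was 2.47 ± 0.56 (adjusted p = 0.0071) at 3 days and 3.11 ± 0.57 (adjusted p = 0.0038) at 14 days. Kdr, the main signalling receptor for VEGF, stood at 34.4, 31.1 and 51.3 CPM at 3 days, 8.80, 9.51 and 10.6 CPM at 7 days, and 19.7, 20.3 and 19.6 CPM at 14 days. Sham libraries held 6.96, 5.72 and 5.60 CPM. Kdr had the lowest p of the 32 genes at 3 days. Its log2 fold change was then 2.66 ± 0.26 (adjusted p = 1.2e-05), and at 14 days it was 1.69 ± 0.26 (adjusted p = 0.00097). Its 7-day libraries also lay above the sham libraries with no overlap, though the difference of 0.65 ± 0.26 (adjusted p = 0.12) was not called.

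Tek, the receptor for angiopoietins, stood at 16.6, 16.5 and 34.0 CPM at 3 days, 0, 0.704 and 2.54 CPM at 7 days, and 23.2, 20.3 and 21.2 CPM at 14 days. Sham libraries held 1.82, 1.14 and 9.24 CPM. It fell to 0 counts in 7-day replicate 1, where a count of 0 allows up to 0.628 CPM. Against sham its log2 fold change was 2.56 ± 0.67 (adjusted p = 0.015) at 3 days and 2.497 ± 0.67 (adjusted p = 0.029) at 14 days. Tie1, the partner receptor of Tek, stood at 9.79, 12.3 and 22.4 CPM at 3 days, 0.209, 0.704 and 0.802 CPM at 7 days, and 7.53, 4.44 and 7.13 CPM at 14 days. Sham libraries held 0.151, 0.229 and 2.52 CPM. Its fold change at 3 days was the highest of the 32 genes at 4.15 ± 0.69 (adjusted p = 0.00091). At 14 days it was 2.93 ± 0.71 (adjusted p = 0.018), and for both genes the 3-day and 14-day libraries did not overlap with sham. The 3-day calls were lost for Flt1 (1.75, adjusted p = 0.053) and Tek (2.09, adjusted p = 0.083) without 3-day replicate 3. The 14-day call of Tek was lost without any of the 14-day libraries or without sham replicate 2 or 3 (log2 fold changes 2.07 to 2.54, adjusted p up to 0.092). That of Tie1 was lost without 14-day replicate 1 or 3 or sham replicate 3 (2.50 to 2.85, adjusted p up to 0.066).

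Of the 8 junction and adhesion genes, 5 were called higher at 3 days (Pecam1, Cdh5, Cldn5, Esam and Emcn), 3 were not called (Ocln, Podxl and Ptprb), and none of the 8 was called at 14 days against sham with every library. Without sham replicate 4, 5 of the 8 were called higher at 14 days (Esam, Ptprb, Podxl, Cdh5 and Emcn), and 7 of the 8 at 3 days. The share of all genes called without that library is not given. Ptprb, a phosphatase that acts on Tek and on the junction protein Cdh5, stood at 106, 133 and 322 CPM at 3 days, 6.70, 6.69 and 20.1 CPM at 7 days, and 162, 172 and 163 CPM at 14 days. Sham libraries held 7.27, 20.3 and 113 CPM. The lowest 3-day library lay below sham replicate 4 and all 14-day libraries lay above it. The log2 fold change was 2.03 ± 0.70 (adjusted p = 0.053) at 3 days and 1.86 ± 0.70 (adjusted p = 0.11) at 14 days, both not called. Pecam1, an adhesion protein of endothelial junctions, leukocytes and platelets, stood at 45.8, 45.7 and 69.4 CPM at 3 days, 12.6, 6.16 and 7.09 CPM at 7 days, and 28.9, 23.6 and 27.8 CPM at 14 days. Sham libraries held 18.2, 19.4 and 42.6 CPM. It was higher than in sham at 3 days (1.02 ± 0.33, adjusted p = 0.040), lower at 7 days (-1.63 ± 0.35, adjusted p = 0.012) and overlapped it at 14 days, where the difference was 0.02 ± 0.33 (adjusted p = 0.98). The 3-day call of Pecam1 was lost in 9 of the 12 leave-outs, with a lowest value of 0.77, adjusted p = 0.19, without 3-day replicate 3. It was lost without any 3-day library, any 14-day library, 7-day replicate 4, sham replicate 2 or sham replicate 3. Its 7-day call held in all 12.

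Cdh5, the cadherin that joins endothelial cells and one of their most specific markers, ranged over 29.9 to 51.6 CPM at 3 days, 1.68 to 3.08 CPM at 7 days, 25.4 to 29.5 CPM at 14 days and 0.454 to 17.9 CPM in sham libraries. It differed from sham by a log2 fold change of 2.64 ± 0.72 (adjusted p = 0.019) at 3 days. It was 2.16 ± 0.72 (adjusted p = 0.072) at 14 days, where the libraries did not overlap with sham but the test was not passed. Without 3-day replicate 3 (2.33, adjusted p = 0.079) or sham replicate 3 (2.15, adjusted p = 0.058) the 3-day call was lost. Cldn5, the main claudin of the blood-brain barrier, was at 0 counts in 7-day replicates 1 and 3 and reached 2.96 to 7.59 CPM at 3 days, 2.23 to 2.86 CPM at 14 days and 0.229 to 0.908 CPM in sham libraries. Its difference from sham was 3.19 ± 0.83 (adjusted p = 0.015) at 3 days, lost without 3-day replicate 3 (2.87, adjusted p = 0.071). Esam, an immunoglobulin-type adhesion protein of tight junctions, differed by 2.98 ± 0.73 (adjusted p = 0.011), likewise lost without that library (2.41, adjusted p = 0.070). Emcn, a sialomucin of the vessel surface, differed by 2.28 ± 0.75 (adjusted p = 0.043). Its call was lost in 10 of 12 leave-outs, all but those of 7-day replicate 1 and sham replicate 4, with adjusted p up to 0.18.

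The other 2 junction genes were not called against sham. Ocln, a tight junction protein also made by other cells, was at 2.43 to 8.07 CPM at 3 days, 1.47 to 2.82 CPM at 7 days, 6.31 to 8.89 CPM at 14 days and 1.97 to 3.20 CPM in sham libraries. It was the one gene of the 32 whose 7-day and 3-day libraries overlapped. Podxl, a sialomucin of vessels and of kidney podocytes, was at 22.1 to 44.5 CPM at 3 days, 8.10 to 12.04 CPM at 7 days, 23.2 to 30.9 CPM at 14 days and 7.09 to 30.8 CPM in sham libraries. Their log2 fold changes at 3 days were 0.75 ± 0.49 (adjusted p = 0.31) for Ocln and 1.06 ± 0.44 (adjusted p = 0.099) for Podxl.

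The 3 barrier transporters were all called higher at 3 days, and Slco1c1 and Abcb1a were called higher at 14 days too. Slco1a4, which carries organic anions across the barrier, stood at 38.0, 39.7 and 155 CPM at 3 days, 1.26, 4.58 and 6.29 CPM at 7 days, and 88.3, 74.8 and 81.1 CPM at 14 days. Sham libraries held 5.75, 4.57 and 43.4 CPM. At 14 days its libraries lay above sham with no overlap, while at 3 days the lowest libraries lay below sham replicate 4. The log2 fold change was 2.18 ± 0.72 (adjusted p = 0.043) at 3 days and 2.24 ± 0.72 (adjusted p = 0.062) at 14 days. Abcb1a, the drug efflux pump of the barrier, stood at 14.3, 15.6 and 44.7 CPM at 3 days, 4.19, 2.82 and 3.21 CPM at 7 days, and 23.8, 28.8 and 25.8 CPM at 14 days. Sham libraries held 4.39, 2.74 and 14.3 CPM. Its 3-day and 14-day libraries lay above the sham libraries, by a narrow margin for 3-day replicate 1 and sham replicate 4. The log2 fold change of Abcb1a was 1.87 ± 0.52 (adjusted p = 0.020) at 3 days and 1.92 ± 0.52 (adjusted p = 0.030) at 14 days. Slco1c1, a thyroid hormone transporter that astrocytes also carry, stood at 11.6, 9.41 and 34.97 CPM at 3 days, 0.628, 1.76 and 4.55 CPM at 7 days, and 29.8, 28.1 and 33.9 CPM at 14 days. Sham libraries held 1.06, 2.74 and 6.72 CPM. The 3-day and 14-day libraries did not overlap with sham. The log2 fold change was 2.53 ± 0.65 (adjusted p = 0.014) at 3 days and 3.22 ± 0.65 (adjusted p = 0.0071) at 14 days.

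All 3 transporter calls at 3 days were lost without 3-day replicate 3, with log2 fold changes of 1.15, adjusted p = 0.31, for Slco1a4, 1.10, adjusted p = 0.16, for Abcb1a and 1.65, adjusted p = 0.11, for Slco1c1. The call of Abcb1a was also lost without sham replicate 2 (1.57, adjusted p = 0.060) or sham replicate 3 (1.46, adjusted p = 0.065). That of Slco1a4 was lost in 9 of 12 leave-outs, and held only without 3-day replicate 1, 7-day replicate 1 or sham replicate 4. At 14 days the call of Abcb1a was lost without any 14-day library or without sham replicate 2 or 3 (1.54 to 1.98, adjusted p up to 0.088), whereas that of Slco1c1 held in all 12.

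Eng, a co-receptor for TGF-beta and BMP ligands that macrophages and monocytes also carry, was the one member called lower than in sham at 14 days, and with Pecam1 one of 2 at 7 days. It stood at 51.5, 55.5 and 86.8 CPM at 3 days, 38.8, 22.4 and 34.1 CPM at 7 days, and 33.6, 36.2 and 29.8 CPM at 14 days. Sham libraries held 48.9, 61.7 and 132 CPM. Every 7-day and 14-day library lay below every sham library, and the 3-day libraries overlapped with sham. Its log2 fold change against sham was -0.31 ± 0.32 (adjusted p = 0.53) at 3 days, -1.34 ± 0.33 (adjusted p = 0.023) at 7 days and -1.27 ± 0.33 (adjusted p = 0.025) at 14 days. Sham replicate 4 held 132 CPM, against 48.9 and 61.7 CPM in the other sham libraries. Without it the values were 0.20, adjusted p = 0.61 at 3 days, -0.81, adjusted p = 0.068 at 7 days and -0.75, adjusted p = 0.061 at 14 days, so neither fall was then called. Without both sham replicate 4 and 3-day replicate 3 it was called lower at 7 days (-0.80, adjusted p = 0.044) and at 14 days (-0.73, adjusted p = 0.043). The 7-day call was lost as well without 7-day replicate 3 (-1.15, adjusted p = 0.071) or replicate 4 (-1.43, adjusted p = 0.055). The 14-day call was lost without any 14-day library (adjusted p up to 0.11).

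Adgrf5, an adhesion receptor of endothelium and lung epithelium, stood at 49.0, 55.1 and 149 CPM at 3 days, 1.05, 6.34 and 7.36 CPM at 7 days, and 82.0, 108 and 80.0 CPM at 14 days. Sham libraries held 4.84, 8.00 and 111 CPM. Sham replicate 4 lay in the range of the 3-day and 14-day libraries, and the other 2 sham libraries far below it. The differences of 1.07 ± 0.82 (adjusted p = 0.38) at 3 days and 1.16 ± 0.82 (adjusted p = 0.40) at 14 days were not called. Robo4, an endothelial receptor that stabilises vessels, stood at 9.79, 9.86 and 37.3 CPM at 3 days, 0.209, 0.704 and 1.20 CPM at 7 days, and 8.74, 7.01 and 6.24 CPM at 14 days. Sham libraries held 0.303, 0.686 and 2.80 CPM. Its 3-day and 14-day libraries lay above all sham libraries, with log2 fold changes of 4.08 ± 0.71 (adjusted p = 0.0013) and 2.70 ± 0.73 (adjusted p = 0.029). The 14-day call of Robo4 was lost without any 14-day library or without sham replicate 2 or 3 (2.11 to 2.80, adjusted p up to 0.096). Adgrl4, an adhesion receptor of growing vessels, was called higher at 3 days (2.42 ± 0.81, adjusted p = 0.047), a call lost in 10 of 12 leave-outs, all but those of 7-day replicate 1 and sham replicate 4 (adjusted p up to 0.21). Ramp2, which turns the calcitonin receptor-like receptor into an adrenomedullin receptor, ranged over 2.28 to 6.05 CPM at 3 days, 0.209 to 1.20 CPM at 7 days, 2.23 to 3.92 CPM at 14 days and 0.757 to 1.68 CPM in sham libraries. Its difference at 3 days was 1.74 ± 0.59 (adjusted p = 0.051).

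Among the transcription factors only Sox18 was called against sham. Sox18, a SOX factor of developing vessels, stood at 5.01, 6.22 and 7.97 CPM at 3 days, 0, 0 and 0.669 CPM at 7 days, and 3.32, 4.68 and 4.46 CPM at 14 days. Sham libraries held 0.151, 0 and 1.3997 CPM. The 3-day and 14-day libraries did not overlap with sham. The log2 fold changes were 3.82 ± 0.85 (adjusted p = 0.0061) at 3 days and 3.17 ± 0.87 (adjusted p = 0.031) at 14 days. Its 14-day call was lost without any 14-day library, sham replicate 2 or 3, or 3-day replicate 2 (2.62 to 3.31, adjusted p up to 0.094). Erg, an ETS factor needed for endothelial identity, stood at 10.2, 15.9 and 28.1 CPM at 3 days, 0, 1.23 and 1.74 CPM at 7 days, and 19.0, 27.1 and 20.5 CPM at 14 days. Sham libraries held 0.908, 1.83 and 14.3 CPM. At 14 days its libraries lay above sham with no overlap, but neither 1.79 ± 0.74 (adjusted p = 0.099) at 3 days nor 2.06 ± 0.74 (adjusted p = 0.093) at 14 days was called. Sox17, a SOX factor of arteries, stood at 2.28, 2.73 and 11.5 CPM at 3 days, 0, 1.94 and 0.267 CPM at 7 days, and 4.67, 4.91 and 5.57 CPM at 14 days. Sham libraries held 0.303, 0.686 and 9.24 CPM. Its highest sham library lay above all but 1 of the injured libraries, and it was called in no comparison, with 0.85 ± 0.97 (adjusted p = 0.57) at 3 days.

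All 3 genes of secreted and matrix proteins were higher at 3 days, and Vwf and Mmrn2 were higher at 14 days. Vwf, the clotting factor stored in endothelial granules and in platelets, stood at 57.2, 79.2 and 122 CPM at 3 days, 6.49, 6.69 and 12.04 CPM at 7 days, and 39.6, 34.6 and 33.9 CPM at 14 days. Sham libraries held 2.27, 4.80 and 15.4 CPM. Its 3-day libraries lay above its 14-day libraries, and both lay above all sham libraries. Its log2 fold changes were 3.61 ± 0.50 (adjusted p = 0.00024) at 3 days and 2.35 ± 0.50 (adjusted p = 0.0085) at 14 days. Mmrn2, a matrix glycoprotein around endothelium, stood at 6.61, 6.83 and 7.59 CPM at 3 days, 1.47, 1.76 and 1.47 CPM at 7 days, and 6.63, 7.71 and 6.68 CPM at 14 days. Sham libraries held 0.303, 0.686 and 2.24 CPM. At 3 days its libraries spanned 6.61 to 7.59 CPM, and replicate 3 did not stand apart. Its log2 fold change against sham was 2.83 ± 0.52 (adjusted p = 0.0018) at 3 days and 2.83 ± 0.53 (adjusted p = 0.0040) at 14 days. Egfl7, a secreted protein of growing vessels, stood at 4.78, 9.86 and 15.9 CPM at 3 days, 0.838, 1.23 and 1.87 CPM at 7 days, and 3.47, 5.38 and 3.12 CPM at 14 days. Sham libraries held 2.57, 1.14 and 1.3997 CPM. Egfl7 was called higher at 3 days (2.53 ± 0.51, adjusted p = 0.0033) and was 1.15 ± 0.53 (adjusted p = 0.18) at 14 days, where its libraries were all above sham but the test was not passed.

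Of the genes for GTPase regulators and other intracellular proteins, Rasip1, Nos3 and Ushbp1 were called higher at 3 days and Fgd5 was not, and none was called at 14 days. Fgd5, an exchange factor for the GTPase Cdc42 in endothelium, stood at 10.9, 17.0 and 44.5 CPM at 3 days, 0, 0.352 and 2.01 CPM at 7 days, and 13.9, 10.3 and 16.5 CPM at 14 days. Sham libraries held 0.757, 2.74 and 14.8 CPM. Sham replicate 4 lay within the injured range. The differences were 2.09 ± 0.80 (adjusted p = 0.077) at 3 days and 1.24 ± 0.80 (adjusted p = 0.35) at 14 days. Ushbp1 stood at 7.52, 10.5 and 26.5 CPM at 3 days, 0.628, 1.06 and 3.08 CPM at 7 days, and 10.7, 8.65 and 12.03 CPM at 14 days. Sham libraries held 2.12, 3.43 and 4.76 CPM. Its 3-day and 14-day libraries lay above all sham libraries, with 2.17 ± 0.54 (adjusted p = 0.012) at 3 days, a call lost without 3-day replicate 3 (1.41, adjusted p = 0.10), and 1.64 ± 0.54 (adjusted p = 0.070) at 14 days. Nos3, the endothelial nitric oxide synthase, differed by 3.78 ± 0.81 (adjusted p = 0.0052) at 3 days, with 4.56 to 18.2 CPM at 3 days and 0 to 1.68 CPM in sham libraries. Rasip1, which vessels need to form a lumen, differed by 3.05 ± 0.69 (adjusted p = 0.0070), with 3.64 to 7.40 CPM at 3 days and 0.229 to 0.908 CPM in sham libraries.

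Both genes of the last group, the other surface and membrane markers, were higher at 3 and at 14 days. Itm2a, a membrane protein abundant in brain endothelium, stood at 9.34, 11.2 and 28.7 CPM at 3 days, 0.419, 1.23 and 3.48 CPM at 7 days, and 22.9, 25.0 and 26.3 CPM at 14 days. Sham libraries held 1.67, 2.74 and 7.28 CPM. The 3-day and 14-day libraries lay above all sham libraries, with log2 fold changes of 2.17 ± 0.59 (adjusted p = 0.018) and 2.74 ± 0.59 (adjusted p = 0.010). The 3-day call was lost without 3-day replicate 3 (1.45, adjusted p = 0.13) and without sham replicate 2 (1.74, adjusted p = 0.054) or 3 (1.97, adjusted p = 0.056). Ly6c1, a surface protein of brain endothelium, stood at 2.73, 5.76 and 17.1 CPM at 3 days, 0, 0.528 and 0.535 CPM at 7 days, and 10.5, 10.99 and 8.24 CPM at 14 days. Sham libraries held 0.605, 0.686 and 1.68 CPM. The log2 fold change of Ly6c1 was 3.21 ± 0.70 (adjusted p = 0.0054) at 3 days and 3.39 ± 0.70 (adjusted p = 0.0078) at 14 days. Its 7-day libraries lay below all sham libraries without being called (-1.23 ± 0.93, adjusted p = 0.42).

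**Figure D3:**
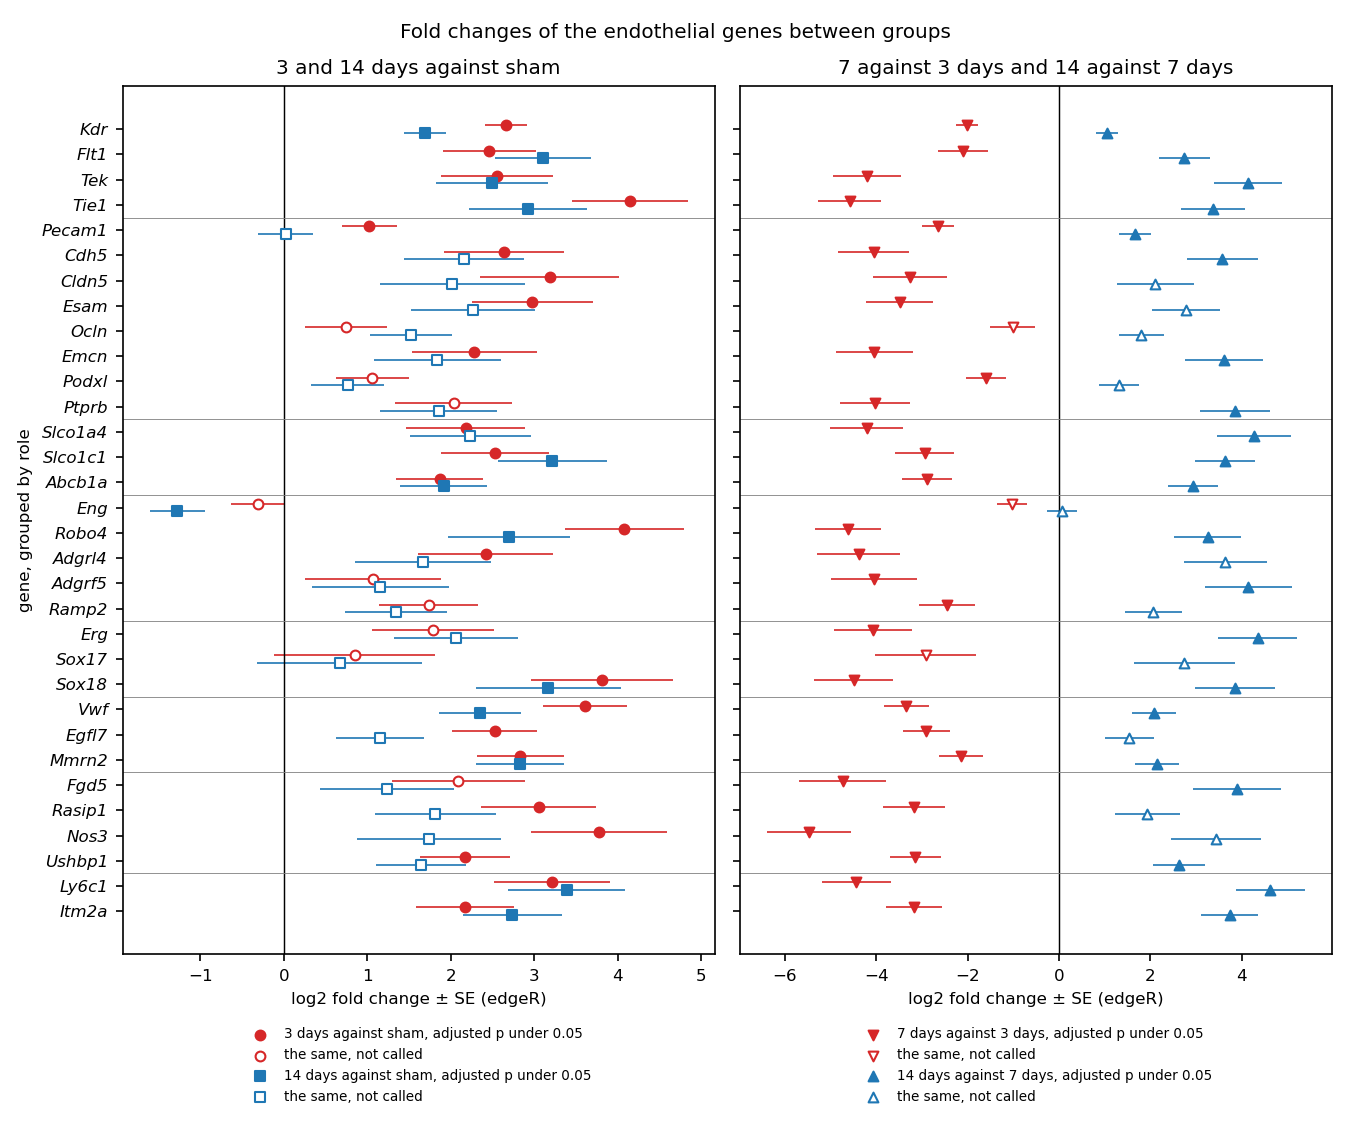
Log2 fold change ± SE of each of the 32 endothelial genes at 3 days (circles) and 14 days (squares) against sham on the left, and at 7 against 3 days (downward triangles) and 14 against 7 days (upward triangles) on the right, with filled symbols for an adjusted p under 0.05. Against sham, 23 symbols are filled at 3 days and 13 at 14 days, with Eng the one called gene below 0, and between times 29 and 21 are filled.

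Between the injured groups, most of the genes were lower at 7 than at 3 days and higher again at 14 days. At 7 against 3 days 29 of the 32 genes were called lower and 0 higher, beside 7.52% and 5.85% of all genes, with a median log2 fold change of -3.31. The 7-day libraries lay below the 3-day libraries with no overlap for 31 of the 32, beside 20.2% of all genes. Nos3 had the deepest fall, -5.48 ± 0.92 (adjusted p = 0.0030), followed by Fgd5 with -4.74 ± 0.95 (adjusted p = 0.0069) and Robo4 with -4.63 ± 0.72 (adjusted p = 0.0021). The falls of Nos3 and Rasip1 are a description, since both passed the filter on low counts through the 3-day libraries, where they are high. So are the falls, and the rises at 14 against 7 days, of the genes that passed it through the 3- and 14-day libraries, such as Tie1, Robo4, Sox18 and Ly6c1. The 3 genes not called were Ocln (-1.02 ± 0.49, adjusted p = 0.17), Eng (-1.03 ± 0.33, adjusted p = 0.051) and Sox17 (-2.92 ± 1.10, adjusted p = 0.087). In 7-day replicate 1, 10 of the 32 genes had 0 counts and 23 had under 10, so the depth of the fall is imprecise for the weaker genes. The call held in all 12 leave-outs for 20 of the 29, and 20 genes were called without 3-day replicate 3, 24 without 7-day replicate 1, 23 without 7-day replicate 3, and 28 without 3-day replicate 2 or 7-day replicate 4.

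At 14 against 7 days 21 of the 32 genes were called higher and 0 lower, beside 1.35% and 0.835% of all genes, with a median log2 fold change of 3.09. For 31 of the 32 the libraries did not overlap, beside 14.0% of all genes, and Eng alone did, at 0.07 ± 0.33 (adjusted p = 0.95). The rise was steepest for Ly6c1 (4.62 ± 0.76, adjusted p = 0.013), Erg (4.34 ± 0.86, adjusted p = 0.023) and Slco1a4 (4.27 ± 0.80, adjusted p = 0.020), and shallowest among called genes for Kdr (1.04 ± 0.24, adjusted p = 0.041). None of the 21 calls held in all 12 leave-outs. The count was 0 without 7-day replicate 1, 7-day replicate 3 or 14-day replicate 1, and 2 without 14-day replicate 2 or 3, when 1 to 34 genes of all tested were called, against 404 with every library. Over the 12 leave-outs the log2 fold change ranged from 2.62 to 2.86 for Flt1 and more widely, from 3.66 to 5.79, for Tek. Ranges for the other called genes are not given. In all, 17 genes were called higher at 3 days than in sham, lower at 7 than at 3 days and higher at 14 than at 7 days. These comparisons share libraries, and the share of all genes with the same pattern was not counted.

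At 14 against 3 days 1 of the 32 genes was called lower, Kdr with -0.97 ± 0.23 (adjusted p = 0.020), and 0 higher, beside 5.14% of all genes called lower and 2.17% higher. The median log2 fold change was -0.46. The call of Kdr was lost without 3-day replicate 3 (-0.71, adjusted p = 0.17) or without any 14-day library (adjusted p up to 0.11). For 11 genes the 14-day libraries lay below the 3-day libraries with no overlap, beside 23.0% of all genes. Against sham, 12 genes were called higher at both 3 and 14 days and 11 at 3 days only, with no share of all genes counted for either pattern. None of those 11 was called between 14 and 3 days, so a difference between the times is not shown for them.

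The mean summed level at 14 days was 0.939 times that at 3 days, and 1.36 times without 3-day replicate 3. The make-up of the sum at each time is given as a description. Per length, on the RPKM scale of the deposited table, the leading genes at 14 days were Flt1 with 15.7, 15.7 and 16.5 RPKM, Itm2a with 13.8, 15.2 and 15.8 RPKM and Ptprb with 14.3, 15.3 and 14.4 RPKM. Flt1 and Itm2a overlapped, as did Itm2a and Ptprb, while all Flt1 libraries lay above all Ptprb libraries. At 3 days Eng with 12.9, 13.7 and 20.9 RPKM and Ptprb with 8.97, 11.2 and 26.3 RPKM had the highest means, and overlapped. Eng made up 11.5, 10.5 and 7.64% of the summed RPKM of the 32 genes at 3 days, 46.1, 26.8 and 27.4% at 7 days and 5.63, 5.90 and 5.04% at 14 days, against 44.8, 46.7 and 28.2% in sham libraries.

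Expressed as a share of the summed RPKM, which takes out the overall level, 7 genes took a higher share at 14 than at 3 days with no overlap between libraries, 11 a lower share, and 14 overlapped. Those with the higher share at 14 days were Flt1, Itm2a, Slco1c1, Erg, Abcb1a, Adgrf5 and Ocln. Flt1 averaged 10.2% at 14 days and 5.31% at 3 days, Itm2a 9.56% at 14 days and 5.22% at 3 days, and Slco1c1 3.98% at 14 days and 1.94% at 3 days. Abcb1a averaged 3.21% at 14 days and 2.49% at 3 days, Erg 4.30% at 14 days and 3.03% at 3 days, Adgrf5 7.10% at 14 days and 5.46% at 3 days, and Ocln 1.25% at 14 days and 0.570% at 3 days. Those with the lower share were Eng, Pecam1, Adgrl4, Kdr, Vwf, Cldn5, Robo4, Tie1, Egfl7, Nos3 and Rasip1. Vwf averaged 1.51% at 14 days and 3.24% at 3 days, Kdr 1.48% at 14 days and 2.71% at 3 days and Nos3 0.412% at 14 days and 1.39% at 3 days. Of the VEGF and Tie receptors, Flt1 is thus among the genes with the higher share and Kdr and Tie1 among those with the lower, while the shares of Tek overlapped at 3.09% at 14 days and 2.82% at 3 days. Shares of a fixed sum depend on each other, and no test was made of them. An exact test of 3 against 3 libraries cannot give a p under 0.1, so some genes would separate with no overlap by chance. No background of other genes was counted for shares. The counts of 7 and 11, and the placing of Flt1 apart from Kdr and Tie1, are therefore a description and do not show a change in make-up.

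**Figure D4:**
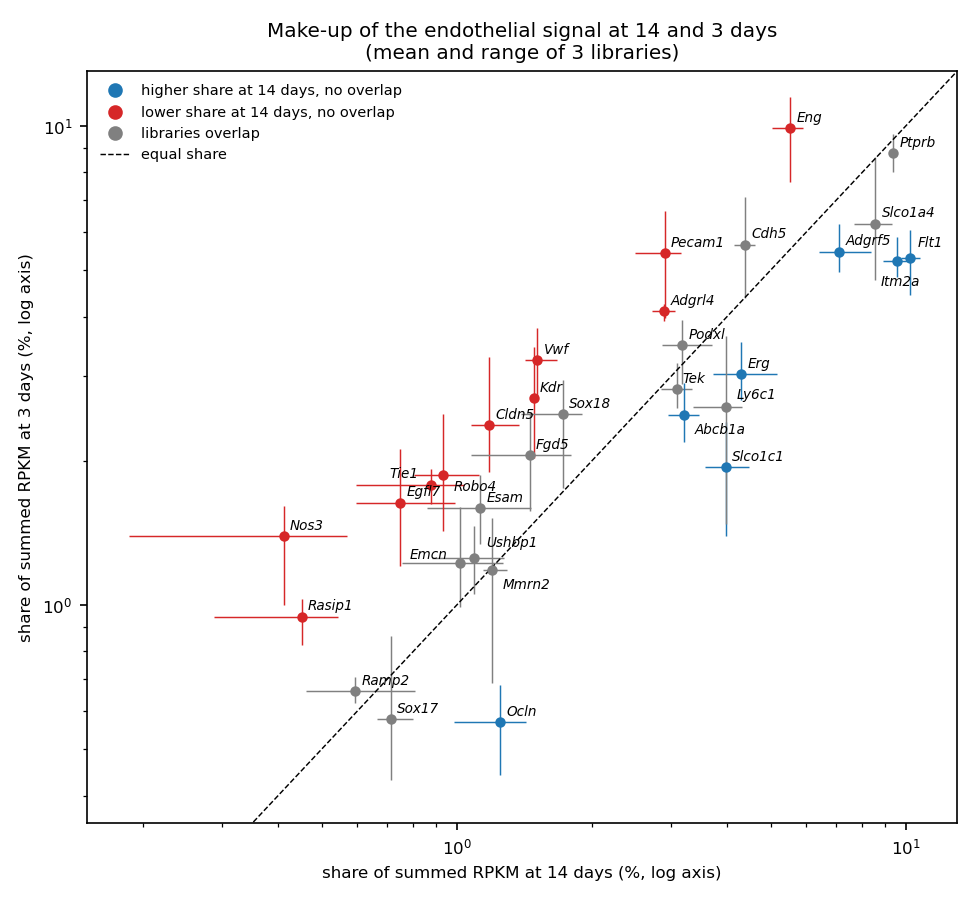
Share of each endothelial gene in the summed RPKM of the 32 genes at 14 days (x axis) and at 3 days (y axis), both on log axes, with points for the mean and bars for the range of 3 libraries. Flt1, Itm2a, Slco1c1, Erg, Abcb1a, Adgrf5 and Ocln lie to the right of the line of equal share with no overlap, and 11 genes, among them Vwf, Kdr and Nos3, lie to its left.

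Other genes that act on vessels were taken from 9 lists, none of which holds a member, and their counts at 3 days stand beside 10.9% of all tested genes called higher and 9.17% lower. Of the VEGF family and co-receptors, 3 of 5 tested genes were higher at 3 days than in sham and 0 lower: Nrp1, a VEGF co-receptor (0.96 ± 0.15, adjusted p = 0.00047), Vegfa, the main ligand (1.35 ± 0.21, adjusted p = 0.00054), and Nrp2 (0.64 ± 0.18, adjusted p = 0.022). Vegfa averaged 44.0 ± 6.12 CPM at 3 days, 18.1 ± 1.21 CPM at 7 days, 25.8 ± 0.901 CPM at 14 days and 17.3 ± 3.39 CPM in sham libraries (mean ± SD, n = 3 each), so its 7-day libraries lay within the sham range. Of angiopoietin and Notch genes 3 of 10 were higher and 0 lower, led by the Notch ligand Jag1 (3.26 ± 0.29, adjusted p = 5.8e-06), with Ephb4, a marker of veins (2.99 ± 0.67, adjusted p = 0.0063), and Notch1 (0.92 ± 0.24, adjusted p = 0.014). Jag1 averaged 38.1 ± 3.15 CPM at 3 days, 11.7 ± 3.04 CPM at 7 days, 18.5 ± 1.24 CPM at 14 days and 4.04 ± 1.35 CPM in sham libraries, and was called higher than in sham at 7 and 14 days also.

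Among genes of sprouting and permeable vessels 5 of 10 were higher at 3 days and 0 lower: Cxcr4 (3.89 ± 0.37, adjusted p = 1.1e-05), which many immune cells carry, the basement membrane collagens Col4a1 (2.98 ± 0.47, adjusted p = 0.00064) and Col4a2 (1.78 ± 0.32, adjusted p = 0.0017), Mcam and Lama4. Of the genes for leukocyte adhesion and activated endothelium 5 of 9 were higher and 0 lower: Lrg1 (4.58 ± 1.01, adjusted p = 0.0058), Icam2 (2.64 ± 0.60, adjusted p = 0.0070), Selp, Clec14a and Cd93. Selp, the selectin that captures leukocytes, was at 4.37 ± 2.26 CPM at 3 days and 0 CPM in all 7-day and all sham libraries, and averaged 0.206 ± 0.239 CPM at 14 days. Selp passed the filter on low counts only through the 3-day libraries, where it is high, so its call is a description. At 14 days against sham 0 of the 9 were called with every library and 2, Cd93 and Clec14a, without sham replicate 4. The latter count is given without the share of all genes in that refit. The difference from the endothelial genes was not tested. Of the endothelial transcription factors 4 of 15 were higher and 0 lower, Gata2 (3.59 ± 0.62, adjusted p = 0.0012), Sox7 (3.45 ± 0.76, adjusted p = 0.0057), Mecom (2.51 ± 0.70, adjusted p = 0.020) and Ets2. Gata2 was called higher at 14 days as well (3.37 ± 0.63, adjusted p = 0.0040).

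Among 14 barrier transport genes 4 were called higher at 3 days and 2 lower. The amino acid transporter Slc7a5 (2.01 ± 0.38, adjusted p = 0.0023), the glucose transporter Slc2a1, Slc38a3 and Slc38a5 were higher, and Slco2b1 (-0.62 ± 0.13, adjusted p = 0.0055) and the iron exporter Slc40a1 (-1.09 ± 0.25, adjusted p = 0.0070) were lower. Slco2b1 averaged 556 ± 29.4 CPM at 3 days against 853 ± 98.0 CPM in sham, and microglia are known to express it. Of 10 tight junction genes 2 were higher, Cgnl1 (2.02 ± 0.32, adjusted p = 0.00064) and Lsr (1.83 ± 0.35, adjusted p = 0.0024), and 2 lower, Jam2 (-1.28 ± 0.26, adjusted p = 0.0033) and Tjp1. Of 10 genes of Wnt signalling in barrier vessels 4 were higher and 0 lower: Foxf2, at 2.30 ± 1.42 CPM at 3 days and 0 CPM in all sham libraries, Adgra2 (2.02 ± 0.51, adjusted p = 0.013), Nkd1 (2.35 ± 0.68, adjusted p = 0.025) and Fzd6. Foxf2 passed the filter only through the groups in which it is high, so its call is a description. Of 9 genes of BMP and ALK1 signalling, the branch that Eng serves, 3 were higher, Smad6 (2.41 ± 0.52, adjusted p = 0.0053), Acvrl1 (1.14 ± 0.30, adjusted p = 0.016) and Id2 (1.19 ± 0.32, adjusted p = 0.018), and Bmpr2 was lower. Without 3-day replicate 3 the 3-day calls of Notch1, Lama4, Clec14a, Cd93, Slc2a1, Slc38a3, Slc38a5, Tjp1, Adgra2, Nkd1, Fzd6, Mecom, Ets2, Acvrl1, Id2 and Bmpr2 were lost. Except for Slc2a1 and Adgra2, other left-out libraries ended these calls too, from 2 of 12 leave-outs for Notch1 and Lama4 to 10 of 12 for Cd93. The call of Nrp2 was lost without 3-day replicate 1 or 2 or sham replicate 2 or 3 (adjusted p up to 0.094).

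Of all tested genes 4.61% were called higher and 4.67% lower at 7 days against sham, and 5.02% higher and 4.79% lower at 14 days. At 7 days Nrp1 (0.88 ± 0.15, adjusted p = 0.0027), Nrp2 (0.75 ± 0.18, adjusted p = 0.019), Jag1 (1.54 ± 0.29, adjusted p = 0.0056) and Cxcr4 (3.28 ± 0.37, adjusted p = 0.00015) were higher. The basement membrane genes Col4a2 (-1.16 ± 0.34, adjusted p = 0.045) and Nid2 (-1.49 ± 0.33, adjusted p = 0.014) were lower, as were Epas1, a hypoxia-responsive factor (-2.23 ± 0.62, adjusted p = 0.037), Abcg2, Tjp1 and Jam2. At 14 days 3 of the 10 Wnt genes were called higher than in sham, Fzd6 (2.63 ± 0.54, adjusted p = 0.0075), Nkd1 (2.50 ± 0.69, adjusted p = 0.032) and Foxf2, which averaged 1.82 ± 0.0452 CPM. Without sham replicate 4 the Wnt genes called higher at 14 days numbered 7, a count given without the share of all genes in that refit. Nrp1, Nrp2, Jag1, Ephb4, Cxcr4, Slc2a1, Slc7a5, Cgnl1, Lsr, Gata2 and Bmp6 were also higher at 14 days, and Slco2b1, Slc40a1 and Tjp1 were lower. Of the collagens neither was called at 14 days, with 0.98 ± 0.47 (adjusted p = 0.20) for Col4a1 and 0.51 ± 0.32 (adjusted p = 0.34) for Col4a2.

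Markers of the cells that wrap vessels moved with the endothelial genes. The summed level of 12 mural cell markers (pericytes and smooth muscle) was 266, 271 and 879 CPM at 3 days, 19.0, 54.9 and 63.6 CPM at 7 days, 518, 679 and 481 CPM at 14 days, and 37.9, 42.8 and 369 CPM in sham libraries. Among them 3-day replicate 3 and sham replicate 4 were again the highest of their groups. At 0 counts were 0 to 1 of these markers per library at 3 days, 1 to 2 at 7 days and 0 at 14 days, against 1 to 3 in sham libraries. Of 9 tested mural markers Vtn (2.09 ± 0.51, adjusted p = 0.011) and Pdgfrb (1.91 ± 0.59, adjusted p = 0.033) were called higher at 3 days, both lost without 3-day replicate 3 and Pdgfrb in 6 of 12 leave-outs, and Vtn at 14 days (3.21 ± 0.52, adjusted p = 0.0015). Without sham replicate 4, 6 of the 9 were called higher at 14 days. The share of all genes in that refit is not given, here or for the fibroblast markers below. The log2 ratio of summed endothelial to mural CPM was 1.30 ± 0.30 at 3 days, 1.79 ± 0.76 at 7 days, 0.86 ± 0.23 at 14 days and 1.54 ± 0.71 in sham libraries (SD, n = 3 each). Each injured group overlapped with sham, and the 14-day ratios all lay below the 7-day ratios. The sum of 12 fibroblast markers was 143 to 210.0 CPM at 3 days, 136 to 175 CPM at 7 days, 299.6 to 317 CPM at 14 days and 120 to 268 CPM in sham libraries. The 3-day and 7-day libraries overlapped with sham, and all 14-day libraries lay above every other library, at a mean of 1.69 times that of sham and 1.97 times that at 7 days. At 3 days 1 of 11, Col15a1, was called lower, and 0 were called at 7 or 14 days against sham with every library, against 5 higher at 14 days without sham replicate 4. Their part in the result was not tested.

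**Figure D5:**
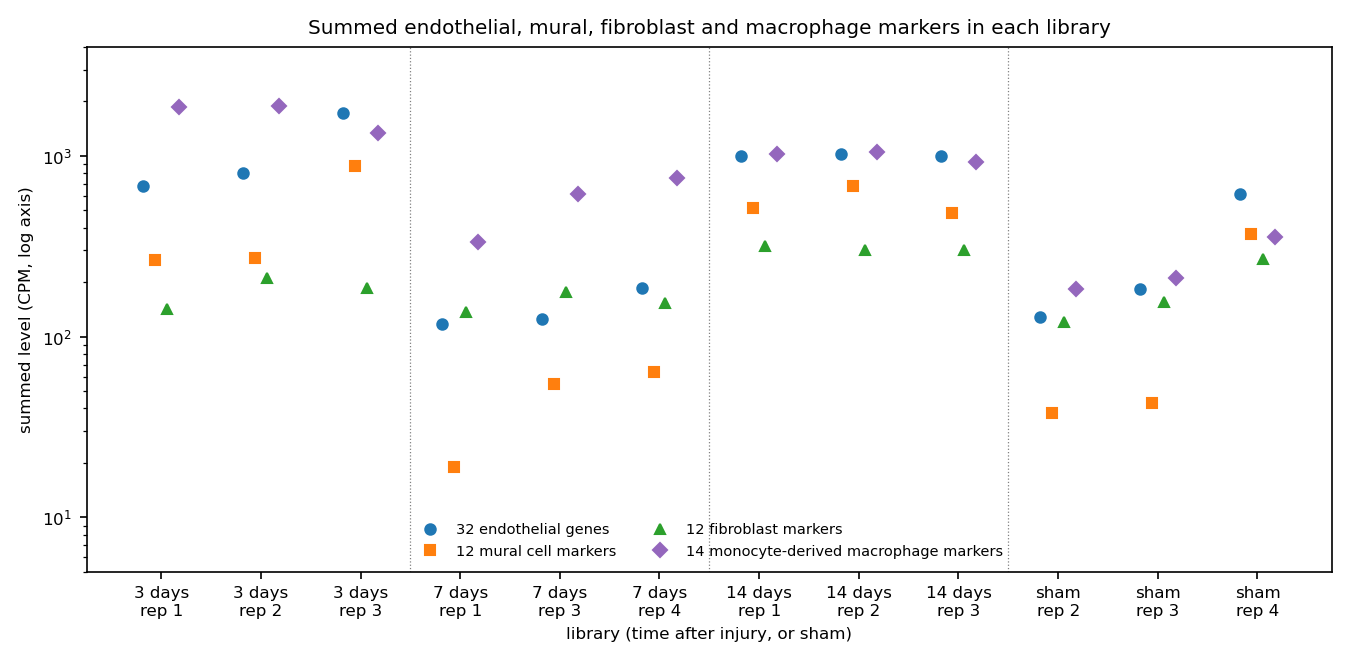
Summed level of the 32 endothelial genes and of the mural cell, fibroblast and monocyte-derived macrophage marker lists in each of the 12 libraries, on a log axis of CPM by library total. Mural markers at 266 to 879 CPM at 3 days, 19.0 to 63.6 CPM at 7 days and 481 to 679 CPM at 14 days, against 37.9 to 369 CPM in sham libraries, trace the endothelial sum, and fibroblast markers lie at 299.6 to 317 CPM at 14 days, above the 120 to 268 CPM of the sham libraries.

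Markers of other cells gave the following values, and their part in the result was not tested either. Monocyte-derived macrophage markers summed to 1335 to 1876 CPM at 3 days, 332 to 757 CPM at 7 days, 926 to 1047 CPM at 14 days and 184 to 354 CPM in sham libraries. At 3 days 7 of 11 tested were higher and 0 lower, led by Lyz2 (2.66 ± 0.25, adjusted p = 1.2e-05), Fn1 (4.91 ± 0.53, adjusted p = 2.9e-05) and Arg1 (3.53 ± 0.43, adjusted p = 7.8e-05). The macrophage sum was lowest of the 3-day group in replicate 3, where the endothelial sum was highest. Megakaryocyte and platelet markers, of cells that also hold Vwf and Pecam1, stayed at 3.4 to 7.6 CPM in all libraries and 0 of 2 tested were called. T and NK cell markers were at 0.7 to 4.2 CPM, with 1 to 5 of the 8 at 0 counts per library and none passing the filter on low counts. Of 4 lymphatic endothelial markers 0 were higher and 1 was lower at 3 days, Lyve1, which macrophages also carry. Astrocyte markers summed to 1641 to 2616 CPM at 3 days, 1797 to 2024 CPM at 7 days, 2904 to 3385 CPM at 14 days and 825 to 5238 CPM in sham libraries. Of 12 astrocyte markers 2 were higher and 0 lower than in sham at 3 days, 0 higher and 3 lower at 7 days, and 5 higher and 0 lower at 14 days. Between times, 5 of the 12 astrocyte markers were lower at 7 than at 3 days, beside 7.52% of all genes (median log2 fold change over the 12 of -1.27). At 14 against 7 days 6 were higher, beside 1.35% of all genes (median 1.90), as the endothelial genes were. The mean astrocyte sum at 7 days was 0.837 times that at 3 days with overlapping libraries, against 0.133 times for the endothelial genes. At 3 days, of 12 oligodendrocyte markers 1 was higher and 2 lower, of 12 neuron markers 0 were higher and 9 lower, and of 10 microglia markers 0 were higher and 4 lower. All counts at 3 days stand beside 10.9% of all tested genes called higher and 9.17% lower. At 7 against 3 days 6 of 11 macrophage markers were lower and 5 of 10 microglia markers higher, beside 7.52% of all genes lower and 5.85% higher.

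A few members share sequence with other genes, and their counts are less certain. The sources used here do not say how reads with several matches, or strand, were treated. Of the windows of 50 bases, the read length, along the transcripts of Ly6c1 32.8% also occur in other genes, most of them in Ly6c2, which monocytes express, and for Abcb1a 17.6%, most of them in Abcb1b. Exons of Rasip1, Ramp2, Nos3, Sox17, Egfl7 and Abcb1a overlap those of neighbours over 42.9%, 33.4%, 32.3%, 16.8%, 11.2% and 10.1% of their bases in the GENCODE annotation of GRCm38, and for Eng it is 1.51%. Of the 23 calls at 3 days, 5 rest on genes of this kind (Ly6c1, Abcb1a, Rasip1, Nos3 and Egfl7).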

How the data were processed

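Nuclear RNA of 12 libraries, 3 per group and each a pool of 3 animals, underwent single-primer isothermal amplification and paired-read sequencing, per the labels' protocols. The deposited tables hold raw counts per Ensembl gene and RPKM made by the authors from those counts, with featureCounts 1.4.6-p3 and GRCm38/mm10 per the submitters' processing notes. The sources used here do not name the aligner, or say how strand and reads matching several places were treated. Amplified reads without molecular identifiers are not independent molecules, so the limit set by a count of 0 (3 counts) covers counting error only.

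Counts were tested with edgeR 4.0.16 (quasi-likelihood, TMM scaling, filterByExpr, 4 groups in one fit) in R 4.3.3, and adjusted by Benjamini-Hochberg over 18451 genes that hold 99.57% of counts. Alternatives used DESeq2 1.42.0 and limma 3.58.1; limma was run on log2(RPKM + 1). Scripts were tested on simulated data. Genes were named by role: the 2 with the highest mean level per role, those with a negative change at 3 days and those called at 7 or 14 days. The 32 genes, the other lists and the rule were chosen with earlier results of these data known.

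The replicate numbers of the labels were not used as pairs. Promoter windows are RefSeq's for GRCm38.p6, and exon overlap and shared 50-base windows come from GENCODE M21.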

Additional observations from a re-analysis of the deposited data

Results flagged for a closer look

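Differences between times after injury, tested directly between the injured groups, drew attention to 3 results. At 7 against 3 days 29 of the 32 endothelial genes were called lower by edgeR, at 14 against 3 days 1 was called (Kdr, lower), and at 14 against 7 days 21 were called higher. The comparisons share libraries with each other. None of the 21 calls of 14 against 7 days, nor the 1 call of 14 against 3 days, held in all 12 leave-outs.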

How the results depend on the processing

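Endothelial genes called numbered 23, 2, 13, 29, 1 and 21 in the order 3, 7 and 14 days against sham, 7 against 3, 14 against 3 and 14 against 7 days. Median-ratio size factors gave 23, 2, 13, 30, 1 and 22. DESeq2 gave 3 at 14 against 3 days. Without a filter on low counts 11, 25 and 7 were called at 7 days against sham, 14 days against sham and 14 against 3 days. With only the 2 groups compared in the fit the counts were 14, 0, 8 and 10 at 3, 7 and 14 days against sham and 14 against 3 days. limma on log2(RPKM + 0.1) gave 1 at 7 days against sham and 0 at 14 against 3 days. There 8 members had an unadjusted p under 0.05 in edgeR, a count given without the share of all genes. Without both 3-day replicate 3 and sham replicate 4 the counts were 4, 26 and 3 at 7 days against sham, 14 days against sham and 14 against 3 days. Leaving out 1 library at a time gave 10 to 30, 1 to 9, 7 to 24, 20 to 31, 0 to 6 and 0 to 28.

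With a replicate block the counts were 5, 22 and 2 at 7 days against sham, 14 days against sham and 14 against 3 days, and Eng at 3 days turned to 0.012. Same-numbered libraries did not deviate together (r from -0.30 to 0.069 over 13 pairs, against -0.19 to 0.24 for different numbers). The labels do not say what the numbers mean, and these correlations cannot tell whether a number marks a shared day or batch.

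On the log2 scale the summed level differed from sham by 2.01, -0.80 and 2.04 at 3, 7 and 14 days, with ranges over leave-outs of 1.54 to 2.67, -1.27 to -0.14 and 1.58 to 2.71. The endothelial to mural ratio differed by -0.24 at 3 days, ranged over leave-outs from -0.63 to 0.049, and turned to 1.96 when fibroblast markers replaced mural markers. At 3 days Ocln turned to -0.093 and Sox17 to -0.35 without 3-day replicate 3, and Eng to 0.20 without sham replicate 4. Over all leave-outs they ranged from -0.093 to 1.02 for Ocln, -0.35 to 3.53 for Sox17 and -0.61 to 0.20 for Eng. The cause of these changes was not tested. Depth limits the weaker genes at 7 days and in sham, where up to 23 members had under 10 counts in a library.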
